A study of Mus musculus with 15 samples.

Results

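The genes described here are 41 genes of the cell cycle and of DNA replication, listed by name and grouped by the step of the cycle they serve. Each gene was followed through 1 probe set, the one with the highest mean over 15 arrays among those annotated with its symbol alone, at whatever level it was read. Of the 41 genes, 40 were measured this way among 19937 named genes, and Ccnb1 dropped out because it had no probe set of a single symbol. Of the 40, 18 had a mean above 5.51 on the log2 scale, the median over all named genes. The arrays measured RNA of cardiomyocytes isolated from the left ventricle of male C57Bl/6NT mice, 8 to 9 months old, after a whole-body exposure to 0.15 Gy of iron ions (56Fe, 1 GeV per nucleon, linear energy transfer 151 keV per µm) or after sham handling. Iron arrays came from day 1 (n = 3), day 3 (n = 3), day 7 (n = 2), day 14 (n = 2) and day 28 (n = 2), and sham arrays from day 1 (n = 2) and day 3 (n = 1). The 3 sham arrays formed 1 control group, so for days 7, 14 and 28 the exposure and the time since it cannot be told apart. Per the labels, over 90% of the isolated cells were calcium-tolerant cardiomyocytes, and a few inflammatory or endothelial cells could come with them. Nothing in the labels ties each array to its own mouse, so a p-value measures how far these arrays scatter, possibly for technical reasons, and their number limits the precision.

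A cell that divides passes from G1, where D-type cyclins with Cdk4 and Cdk6 phosphorylate the retinoblastoma protein and release E2F factors, into S phase, where licensed origins fire and the MCM helicase opens the DNA, and then into mitosis under Cdk1 with A and B cyclins. Most genes of S phase and mitosis are transcribed only in cycling cells. Mitotic genes are switched on late, in part through the FoxM1-MuvB complex, and many of their promoters hold CCAAT boxes and cell cycle homology regions. Adult cardiomyocytes have largely left the cell cycle, whereas blood cells, endothelial cells and fibroblasts of the heart can divide, and in bulk RNA fewer cells of a type and less RNA per cell cannot be told apart.

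Before the values, the promoters of 5 of the 6 genes with the smallest p-values in the test of differences among iron days are shown (the other is Ccna2), because they show what such promoters look like at the level of letters. Each is the 250 bases before the RefSeq transcript start on GRCm38.p6, 5′ to 3′ on the gene's strand. Capitals mark 3 motifs searched on both strands: CCAAT, which reads ATTGG from the opposite strand, the cell cycle homology region, taken as TTTGAA or in a second spelling TTCGAA, and E2F letters, taken as TTTCCCGC, TTTCGCGC, TTTGCCGC or TTTGGCGC. Matches of different motifs did not overlap in these windows. The windows are Mcm6 at chr1:128359706-128359955, minus strand, Mki67 at chr7:135716380-135716629, minus strand, Top2a at chr11:99024190-99024439, minus strand, Mcm2 at chr6:88898781-88899030, minus strand and Bub1b at chr2:118597961-118598210, plus strand.
Mcm6: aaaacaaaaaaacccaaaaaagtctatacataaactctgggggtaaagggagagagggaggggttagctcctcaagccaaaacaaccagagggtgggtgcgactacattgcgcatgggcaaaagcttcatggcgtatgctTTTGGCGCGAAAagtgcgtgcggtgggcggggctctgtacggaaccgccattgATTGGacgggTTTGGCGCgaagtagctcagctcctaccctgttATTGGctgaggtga
Mki67: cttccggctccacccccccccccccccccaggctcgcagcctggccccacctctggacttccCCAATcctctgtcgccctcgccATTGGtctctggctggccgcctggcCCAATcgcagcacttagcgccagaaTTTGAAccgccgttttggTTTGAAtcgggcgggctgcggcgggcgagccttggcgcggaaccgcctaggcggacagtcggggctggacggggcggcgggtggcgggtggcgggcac
Top2a: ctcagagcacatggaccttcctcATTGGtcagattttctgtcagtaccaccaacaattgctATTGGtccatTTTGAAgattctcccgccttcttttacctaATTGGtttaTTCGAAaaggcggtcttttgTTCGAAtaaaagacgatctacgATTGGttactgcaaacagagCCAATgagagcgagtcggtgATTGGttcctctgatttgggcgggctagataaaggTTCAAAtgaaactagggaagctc
Mcm2: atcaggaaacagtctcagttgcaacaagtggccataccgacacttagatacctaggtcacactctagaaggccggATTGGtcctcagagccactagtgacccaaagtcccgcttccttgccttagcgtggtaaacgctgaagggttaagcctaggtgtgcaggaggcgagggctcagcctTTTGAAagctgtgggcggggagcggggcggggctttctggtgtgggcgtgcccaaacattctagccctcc
Bub1b: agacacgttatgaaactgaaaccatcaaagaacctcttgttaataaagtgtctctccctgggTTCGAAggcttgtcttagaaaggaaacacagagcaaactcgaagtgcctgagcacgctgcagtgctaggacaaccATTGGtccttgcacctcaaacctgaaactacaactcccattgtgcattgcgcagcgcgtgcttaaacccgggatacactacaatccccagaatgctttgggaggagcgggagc
In the Mcm6 window, E2F letters stood at 3 places, of which 2 overlap on opposite strands, beside 2 CCAAT boxes. The Top2a window held 6 CCAAT boxes and 4 cell cycle homology regions, and that of Mki67 held 3 and 2. A single CCAAT box and a single cell cycle homology region were found in each of the Mcm2 and Bub1b windows. Of the 40 genes, 30 had an entry in the RefSeq promoter table, with 32 promoters among them. CCAAT stood in 68.8% of these 32 promoters against 33.8% of all 32851 promoters of the same length, the cell cycle homology region in 31.2% against 17.1%, and E2F letters in 18.8% against 1.86%. Among the 16 promoters of genes that differed between iron days, the shares were 81.2%, 50% and 18.8%, and among the other 16 they were 56.2%, 12.5% and 18.8%. The split into these sets comes from the F test on these same arrays, and the difference in shares was not tested. These are counts of letters, which do not show that a factor binds there.

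Across the whole series, array medians lay between 5.42 and 5.62 on the log2 scale and pairs of arrays correlated with r between 0.960 and 0.994. All 14 measured cardiomyocyte markers were high on every array, with no value under 8.92 and with array medians of 12.1 to 12.2. In 3 arrays, those of iron day 28 and the sham day 3 array, markers of T cells and thymocytes stood apart, in a preparation of cardiomyocytes. Their score, the mean over 14 markers after each was centred over the arrays, was 2.51 and 2.37 on day 28 and 1.35 in the sham day 3 array, against -0.94 and -0.69 in the sham day 1 arrays, -1.01 to -0.50 on iron days 1 and 3, 0.08 and -0.26 on day 7 and 0.75 and -0.42 on day 14. Rag1, the recombinase of developing lymphocytes, read 8.27 and 8.11 on day 28 and 6.38 in the sham day 3 array against 2.27 and 2.61 in the other sham arrays. Thymocytes include dividing cells, so the lymphocyte values are given beside the results for these arrays. Counts, and the values of those of the 40 genes that rose, are also given without the arrays concerned.

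**Figure D1:**
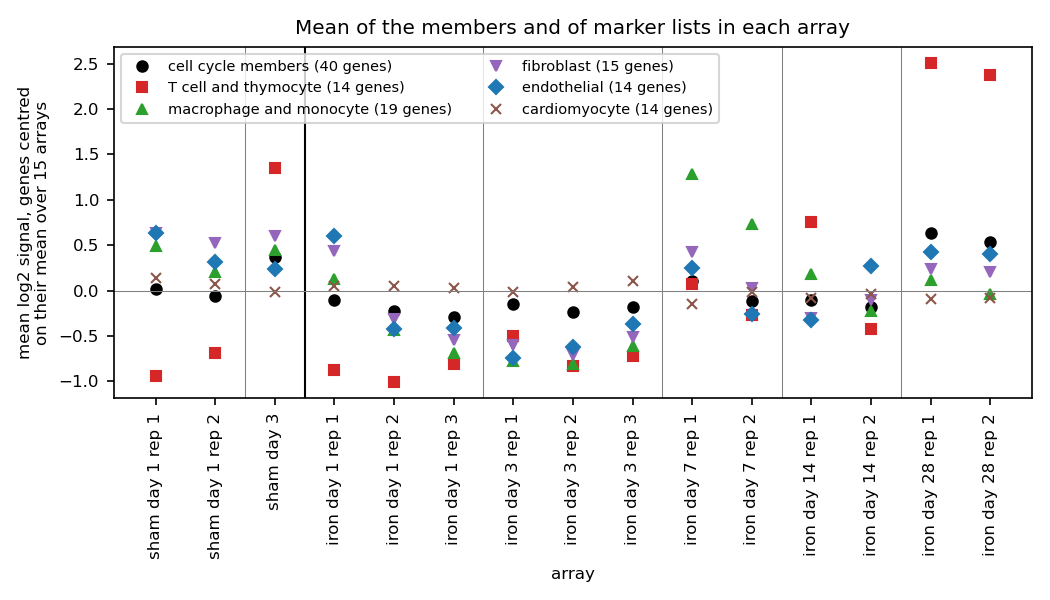
Mean of centred log2 levels per array for the cell cycle genes and for marker lists of T cells and thymocytes, macrophages, fibroblasts, endothelial cells and cardiomyocytes, with arrays in order of group on the x axis. The cell cycle score was 0.63 and 0.53 on iron day 28 and 0.37 in the sham day 3 array, the same 3 arrays in which the T cell and thymocyte score was highest.

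The genes varied more between arrays than most. The range over the 15 arrays had a median of 0.95 log2 units over the 40 genes against 0.70 over all named genes, and ran from 0.44 for Ccne1 to 3.93 for Top2a. For 25 of the 40 genes both iron day 28 arrays lay above the 10 other iron arrays, an order found for 7.05% of all named genes. For 26 of the 40 the sham day 3 array lay above both sham day 1 arrays, against 27.4% of all genes, and 23 of 40 had both orders, against 5.04% of all genes. These orders were chosen for counting after the values were seen. By role, the day 28 order held for 7 of 9 chromosome, spindle and checkpoint genes, 6 of 9 licensing and helicase genes, 4 of 5 mitotic kinases and cyclins, 3 of 4 genes of nucleotide supply, 2 of 6 genes of the E and A cyclin group, 2 of 5 D-type cyclins and partner kinases, and 1 of 2 partners of the anaphase-promoting complex. Beside them, 12 of 14 T cell and thymocyte markers had the day 28 order, 2 of 15 fibroblast, 1 of 11 lung and airway, 0 of 19 macrophage, 0 of 14 endothelial, 0 of 6 B cell and 0 of 14 cardiomyocyte markers. The B cell score was nonetheless 0.90 and 0.86 on day 28, against -0.87 to -0.31 on iron days 1 and 3. It was 1.76 and 0.33 on day 7 and -0.60 and 0.23 on day 14. In the sham arrays it was -0.53 and -0.24 on day 1 and 0.89 on day 3. The sham order held for all 14 T cell and thymocyte markers, 10 of 11 lung and airway, 5 of 6 B cell, 8 of 15 fibroblast, 7 of 14 cardiomyocyte, 6 of 19 macrophage and 1 of 14 endothelial markers. What part the signal of these other cells had in the order of the cell cycle genes was not tested.

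**Figure D2:**
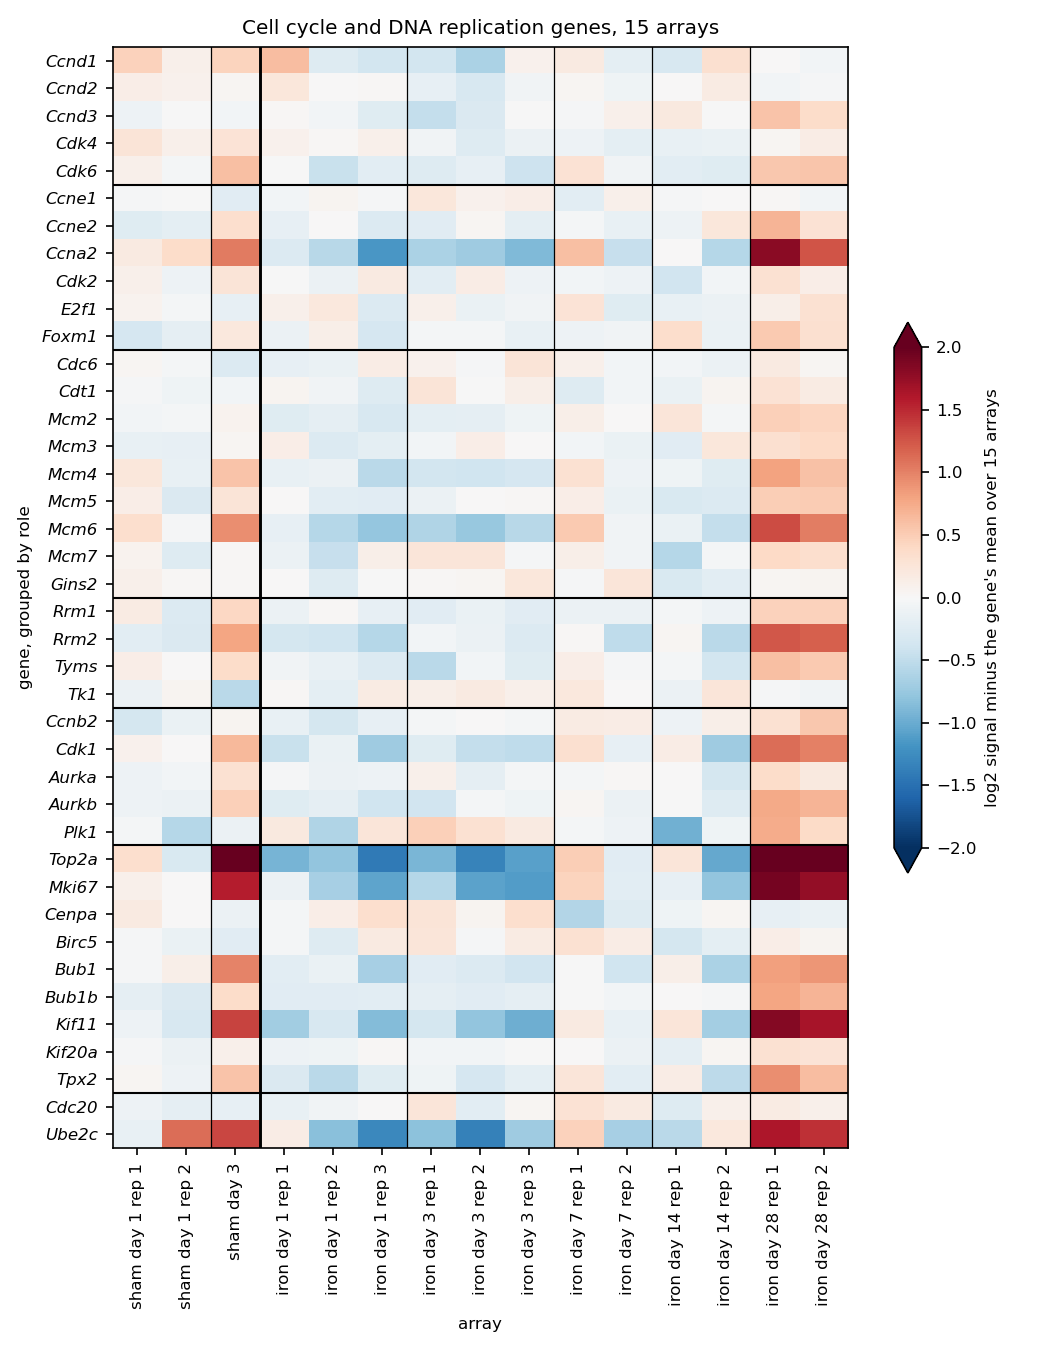
Heat map of log2 levels of the 40 genes on the 15 arrays, each gene centred on its mean over the arrays, with genes in rows by role and arrays in columns by group. The columns of iron day 28 and of the sham day 3 array are high for most S phase and mitosis genes, while Ccne1, Cdc20 and Cenpa do not follow.

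Each iron day was first set against sham, which asks how exposed hearts differed by that day. Genes were tested with limma over all 19937 named genes, p-values were adjusted by the method of Benjamini and Hochberg, and a difference is a log2 difference throughout. On day 1 none of the 40 genes passed at an adjusted p of 0.05, with 0% of all genes passing, and 15 of the 40 had an unadjusted p under 0.05, against 2067 of all genes. The median difference on day 1 was -0.14 over the 40 genes and 0.05 over all genes. On day 3, 6 of the 40 genes fell and 0 rose, where 3.11% of all genes fell, and the median was -0.15 (all genes 0.10). One gene, Cdk4, fell on day 7, where 0.878% of all genes fell (against the sham day 1 arrays alone none of the 40 did, where 0.893% of all genes fell), and the median was -0.11 (all genes 0.04), which turned to 0.06 against the sham day 1 arrays alone. On day 14 none passed, with 0.512% of all genes passing in either direction, 9 of the 40 genes under an unadjusted p of 0.05 (3080 of all genes) and a median of -0.24 (all genes 0.03). On day 28, 2 genes rose and 0 fell, where 1.05% of all genes rose, with a median of 0.45 (all genes 0.06) and 35 of 40 differences above 0 (87.5%, against 60.8% of all genes). Over all iron days against sham, with the days weighted equally, none passed (0.732% of all genes did). An unadjusted p under 0.05 was found for 5 of the 40 and 3378 of all 19937 genes, a smaller share of the 40. The median was -0.07 (0.05 against the sham day 1 arrays alone).

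The iron days were then compared among themselves, which asks how levels moved with time after exposure. The sham means do not enter these differences, but the sham arrays take part in the estimate of the spread. Of the 40 genes, 19 differed among the 5 iron days by the F test, where 9.98% of all genes did. Late iron (days 7, 14 and 28) stood above early iron (days 1 and 3) for 16 genes, where 6.56% of all genes rose, and below it for 1, Cenpa, where 5.13% fell. Between day 3 and day 7, Cenpa fell and no other gene of the 40 passed, where 3.64% of all genes fell. Without iron day 28 and the sham day 3 array, the late minus early comparison, then days 7 and 14 against days 1 and 3, kept 1 higher gene, Top2a (3.74% of all genes rose), and 1 lower gene, Cenpa (3.25%), and no gene of the 40 passed the F test, where 4.59% of all genes did. At an unadjusted p under 0.05 in that F test there were 8 of the 40 and 4249 of all 19937 genes, a slightly smaller share of the 40. Without iron day 28 replicate 1 the F test called 1 of the 40 genes (3.19% of all genes), and without replicate 2 it called 5 (3.62%).

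The D-type cyclins and their partner kinases drive G1. Cdk4, the kinase that D-type cyclins activate, read 9.74 and 9.57 in the sham day 1 arrays and 9.74 in the sham day 3 array, and 9.56, 9.50 and 9.58 on iron day 1, 9.41, 9.22 and 9.36 on day 3, 9.37 and 9.28 on day 7, 9.33 and 9.34 on day 14 and 9.51 and 9.63 on day 28. All arrays of days 3, 7 and 14 lay below all sham arrays. Cdk4 fell on day 3 by 0.35 (SE 0.0754, adjusted p = 0.0211), a 1.28-fold change, and on day 7 by 0.36 (SE 0.0843, adjusted p = 0.0429), the latter being -0.33 (SE 0.0934, adjusted p = 0.0861) against the sham day 1 arrays alone. On day 14 the difference of -0.35 (SE 0.0843, adjusted p = 0.083) did not pass, nor did that over all iron days, -0.26 (SE 0.0599, adjusted p = 0.0606). Day 28 was at -0.11 (SE 0.0843, adjusted p = 0.551), with overlapping arrays. Against the sham day 1 arrays alone the day 3 difference was -0.32 (SE 0.0853, adjusted p = 0.0757) and no longer passed. Late and early iron arrays overlapped, at -0.03 (SE 0.0533, adjusted p = 0.792), and the late minus early difference did not pass.

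Ccnd3, the D-type cyclin prominent in lymphoid cells, read 7.73 and 7.81 in the sham day 1 arrays and 7.77 in the sham day 3 array, and 7.84, 7.77 and 7.58 on iron day 1, 7.34, 7.54 and 7.81 on day 3, 7.81 and 7.93 on day 7, 8.02 and 7.81 on day 14 and 8.39 and 8.19 on day 28. Both day 28 arrays exceeded every other array. Ccnd3 rose from early to late iron by 0.38 (SE 0.0828, adjusted p = 0.0099). Cdk6, the other partner of D-type cyclins, read 6.12 and 5.99 in the sham day 1 arrays and 6.62 in the sham day 3 array, and 6.01, 5.58 and 5.80 on iron day 1, 5.76, 5.85 and 5.60 on day 3, 6.31 and 5.95 on day 7, 5.82 and 5.79 on day 14 and 6.56 and 6.57 on day 28. It rose from early to late iron by 0.40 (SE 0.112, adjusted p = 0.0343), and its sham day 3 value was the highest of the 15. Ccnd1, the cyclin that mitogens induce, read 8.51 and 8.15 in the sham day 1 arrays and 8.50 in the sham day 3 array, and 8.68, 7.79 and 7.68 on iron day 1, 7.68, 7.41 and 8.13 on day 3, 8.24 and 7.86 on day 7, 7.74 and 8.37 on day 14 and 8.06 and 7.99 on day 28. The day 3 arrays of Ccnd1 lay below all sham arrays, yet the difference of -0.64 (SE 0.248, adjusted p = 0.127) did not pass. Ccnd2, the D-type cyclin expressed beside it in heart muscle, had a range of under 0.7 over all arrays and a day 3 difference of -0.27 (SE 0.0855, adjusted p = 0.0773).

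**Figure D3:**
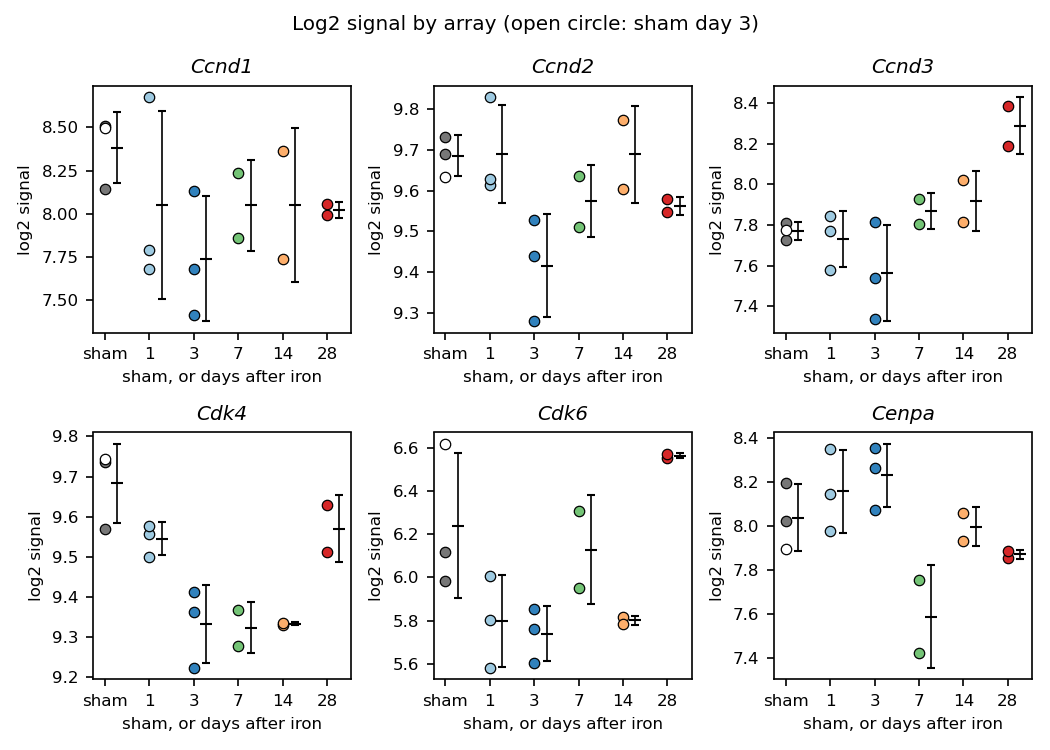
Log2 levels per array by group for 5 genes of G1 and for Cenpa, with points for arrays, an open circle for the sham day 3 array, and bars for the mean and SD. For Cdk4, all arrays of days 3, 7 and 14 are under the sham arrays, and for Cenpa the day 7 arrays are the lowest.

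Among the E and A cyclins, Cdk2 and transcription factors, Ccna2 changed and the other 5 did not pass in any comparison with all 15 arrays. Ccna2, cyclin A, which serves S phase and mitotic entry, read 5.52 and 5.70 in the sham day 1 arrays and 6.38 in the sham day 3 array, and 5.07, 4.77 and 4.17 on iron day 1, 4.71, 4.62 and 4.45 on day 3, 5.94 and 4.88 on day 7, 5.35 and 4.76 on day 14 and 7.13 and 6.59 on day 28. All 6 arrays of days 1 and 3 lay below all sham arrays. Ccna2 fell on day 3 by 1.27 (SE 0.299, adjusted p = 0.0284), a 2.42-fold change. On day 1 its difference was about as large, -1.19 (SE 0.299, adjusted p = 0.304), but no gene passed in that comparison. Ccna2 rose from early to late iron by 1.14 (SE 0.212, adjusted p = 0.00385). Against the sham day 1 arrays alone, day 3 was at -1.02 (SE 0.304, adjusted p = 0.107). Ccne2, an E-type cyclin of the G1 to S transition, was at 5.37 and 4.97 on day 28 and 5.02 in the sham day 3 array, against 4.44 and 4.49 in the other sham arrays. Against the latter alone Ccne2 rose on day 28 by 0.71 (SE 0.168, adjusted p = 0.0357). Foxm1, the factor that activates mitotic genes, was at 5.12 and 4.93 on day 28, above the sham day 3 value of 4.81. Ccne1, E2f1 and Cdk2 each had a range under 0.7 over the 15 arrays, and their day 28 arrays overlapped with other iron arrays.

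Of the licensing and helicase genes, Mcm2, Mcm4 and Mcm6 rose from early to late iron and Mcm6 fell on day 3, while Cdc6, Cdt1, Mcm3, Mcm7 and Gins2 passed in no comparison. Mcm6, a subunit of the hexameric helicase, read 5.89 and 5.53 in the sham day 1 arrays and 6.47 in the sham day 3 array, and 5.39, 4.98 and 4.77 on iron day 1, 4.94, 4.79 and 4.99 on day 3, 6.07 and 5.47 on day 7, 5.42 and 5.07 on day 14 and 6.86 and 6.57 on day 28. Its day 1 and day 3 arrays all lay below the sham arrays, and its day 28 arrays were the highest of all. Mcm6 fell on day 3 by 1.06 (SE 0.227, adjusted p = 0.0209), a 2.08-fold change, after a day 1 difference of -0.92 (SE 0.227, adjusted p = 0.297). It rose from early to late iron by 0.93 (SE 0.16, adjusted p = 0.00251). Mcm2, another subunit, read 5.85 and 5.85 in the sham day 1 arrays and 5.96 in the sham day 3 array, and 5.66, 5.72 and 5.57 on iron day 1, 5.69, 5.71 and 5.80 on day 3, 6.02 and 5.90 on day 7, 6.13 and 5.86 on day 14 and 6.38 and 6.32 on day 28. No late iron array of Mcm2 overlapped with the early ones, and the rise was 0.41 (SE 0.0675, adjusted p = 0.00207). The Mcm2 difference on day 28 against sham, 0.46 (SE 0.107, adjusted p = 0.0513), lay just outside the threshold. Mcm4 rose from early to late iron by 0.53 (SE 0.122, adjusted p = 0.0132), and Mcm5 passed the F test among iron days and none of the other comparisons (adjusted p = 0.0359).

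Of the 4 genes of nucleotide supply, Tyms rose from early to late iron and Rrm2 differed among iron days. Rrm2, the inducible subunit of ribonucleotide reductase, read 5.08 and 4.999 in the sham day 1 arrays and 6.07 in the sham day 3 array, and 4.93, 4.88 and 4.72 on iron day 1, 5.23, 5.17 and 5.002 on day 3, 5.30 and 4.78 on day 7, 5.32 and 4.74 on day 14 and 6.53 and 6.48 on day 28. Its day 28 and sham day 3 arrays lay above all others, and the day 28 difference from sham was 1.12 (SE 0.267, adjusted p = 0.0574). Against the sham day 1 arrays alone Rrm2 rose by 1.47 (SE 0.193, adjusted p = 0.0007). Rrm1, the large subunit of the same enzyme, was at 6.97 and 6.98 on day 28 and 6.93 in the sham day 3 array, while the other 12 arrays ran from 6.24 to 6.68. Tyms, thymidylate synthase, rose from early to late iron by 0.36 (SE 0.0985, adjusted p = 0.0308). Tk1, thymidine kinase, read 5.82 and 5.99 in the sham day 1 arrays and 5.40 in the sham day 3 array, and 5.96, 5.73 and 6.09 on iron day 1, 6.06, 6.11 and 6.03 on day 3, 6.14 and 5.94 on day 7, 5.82 and 6.17 on day 14 and 5.91 and 5.86 on day 28. Unlike Rrm2, Tk1 was lowest in the sham day 3 array and passed in no comparison.

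Of the mitotic cyclins and kinases, Ccnb2 rose on day 28, and Ccnb2, Cdk1 and Aurkb rose from early to late iron. Ccnb2, cyclin B2, which activates Cdk1, read 6.65 and 6.86 in the sham day 1 arrays and 7.05 in the sham day 3 array, and 6.85, 6.65 and 6.83 on iron day 1, 6.96, 7.00 and 6.95 on day 3, 7.15 and 7.14 on day 7, 6.89 and 7.11 on day 14 and 7.30 and 7.53 on day 28. Its day 28 arrays were the 2 highest, and the rise over sham was 0.56 (SE 0.122, adjusted p = 0.0394), a 1.48-fold change. Cdk1, the kinase of mitotic entry, read 4.999 and 4.91 in the sham day 1 arrays and 5.57 in the sham day 3 array, and 4.47, 4.78 and 4.201 on iron day 1, 4.67, 4.44 and 4.41 on day 3, 5.23 and 4.74 on day 7, 5.06 and 4.201 on day 14 and 6.03 and 5.92 on day 28. Day 28 was highest and the sham day 3 array came next. Cdk1 rose from early to late iron by 0.70 (SE 0.162, adjusted p = 0.0127). Aurkb, the kinase of the chromosomal passenger complex, rose by 0.40 (SE 0.11, adjusted p = 0.0293) in the same comparison. Plk1, the polo-like kinase, read 5.55 and 5.01 in the sham day 1 arrays and 5.46 in the sham day 3 array, and 5.79, 4.99 and 5.83 on iron day 1, 6.06, 5.88 and 5.76 on day 3, 5.54 and 5.49 on day 7, 4.62 and 5.50 on day 14 and 6.33 and 5.96 on day 28. All 3 day 3 arrays of Plk1 lay above the sham arrays and the difference of 0.56 (SE 0.243, adjusted p = 0.166) did not pass.

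Of the 9 chromosome, spindle and checkpoint genes, 5 rose from early to late iron (Top2a, Mki67, Kif11, Bub1b and Tpx2) and Cenpa fell. Top2a, the topoisomerase that untangles replicated DNA, read 5.35 and 4.70 in the sham day 1 arrays and 7.15 in the sham day 3 array, and 4.08, 4.22 and 3.60 on iron day 1, 4.10, 3.68 and 3.92 on day 3, 5.51 and 4.78 on day 7, 5.25 and 3.98 on day 14 and 7.53 and 7.32 on day 28. Early iron arrays lay under all sham arrays, and both day 28 arrays lay above the sham day 3 array. Top2a fell on day 3 by 1.84 (SE 0.476, adjusted p = 0.0401), a 3.57-fold change, and rose from early to late iron by 1.79 (SE 0.337, adjusted p = 0.00426). Mki67, the proliferation antigen Ki-67, read 5.74 and 5.65 in the sham day 1 arrays and 7.22 in the sham day 3 array, and 5.53, 4.97 and 4.58 on iron day 1, 5.07, 4.58 and 4.52 on day 3, 6.08 and 5.43 on day 7, 5.48 and 4.86 on day 14 and 7.56 and 7.39 on day 28. The same arrays were high and low as for Top2a. Mki67 fell on day 3 by 1.48 (SE 0.36, adjusted p = 0.0325) and rose from early to late iron by 1.26 (SE 0.255, adjusted p = 0.00657).

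Kif11, the motor that separates the spindle poles, read 4.49 and 4.27 in the sham day 1 arrays and 5.95 in the sham day 3 array, and 3.90, 4.28 and 3.72 on iron day 1, 4.24, 3.80 and 3.62 on day 3, 4.78 and 4.44 on day 7, 4.83 and 3.92 on day 14 and 6.44 and 6.24 on day 28. It rose from early to late iron by 1.18 (SE 0.252, adjusted p = 0.00859) and did not pass on day 3. Bub1b, the spindle checkpoint kinase BubR1, read 4.93 and 4.82 in the sham day 1 arrays and 5.48 in the sham day 3 array, and 4.89, 4.88 and 4.91 on iron day 1, 4.93, 4.89 and 4.94 on day 3, 5.10 and 5.06 on day 7, 5.12 and 5.09 on day 14 and 5.90 and 5.80 on day 28. Its early arrays spanned less than 0.1, day 7 and 14 sat a little higher, and day 28 was above all others. Bub1b rose over sham on day 28 by 0.77 (SE 0.154, adjusted p = 0.0234), a 1.71-fold change, and from early to late iron by 0.44 (SE 0.0971, adjusted p = 0.0104). Bub1, its partner in the checkpoint, read 4.67 and 4.74 on day 28 and 4.85 in the sham day 3 array, the highest of the 15, and did not pass. Tpx2, which nucleates spindle microtubules, rose from early to late iron by 0.48 (SE 0.144, adjusted p = 0.0453).

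Cenpa, the histone H3 variant of centromeres, moved the opposite way. It read 8.20 and 8.02 in the sham day 1 arrays and 7.90 in the sham day 3 array, and 7.98, 8.15 and 8.35 on iron day 1, 8.26, 8.07 and 8.36 on day 3, 7.42 and 7.75 on day 7, 7.93 and 8.06 on day 14 and 7.86 and 7.89 on day 28. The day 7 arrays were the lowest of the 15. Cenpa fell from day 3 to day 7 by 0.64 (SE 0.134, adjusted p = 0.0105). Its fall from early to late iron was smaller, with a difference of -0.38 (SE 0.085, adjusted p = 0.0115). Without the day 28 and sham day 3 arrays Cenpa again fell from day 3 to day 7, where 2.97% of all genes fell, now at -0.64 (SE 0.138, adjusted p = 0.0165), and the late minus early difference was -0.40 (SE 0.0979, adjusted p = 0.0294). The day 7 difference from sham was -0.45 (SE 0.134, adjusted p = 0.0904). Birc5, the survivin subunit of the passenger complex, and Kif20a, a kinesin of cytokinesis, each had a range under 0.7 and passed in no comparison.

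Ube2c, the ubiquitin-conjugating enzyme that works with the anaphase-promoting complex, read 6.60 and 7.87 in the sham day 1 arrays and 8.08 in the sham day 3 array, and 6.89, 5.91 and 5.46 on iron day 1, 5.92, 5.40 and 6.04 on day 3, 7.21 and 6.09 on day 7, 6.21 and 6.96 on day 14 and 8.36 and 8.21 on day 28. Its day 1 replicate 1 array was inside the sham range, and all day 3 arrays were below it. Ube2c fell on day 3 by 1.73 (SE 0.414, adjusted p = 0.0312), a 3.32-fold change, and rose from early to late iron by 1.24 (SE 0.293, adjusted p = 0.0148). Cdc20, the activator of the same complex, had a range under 0.7 and a day 7 difference of 0.37 (SE 0.138, adjusted p = 0.156) that did not pass.

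**Figure D4:**
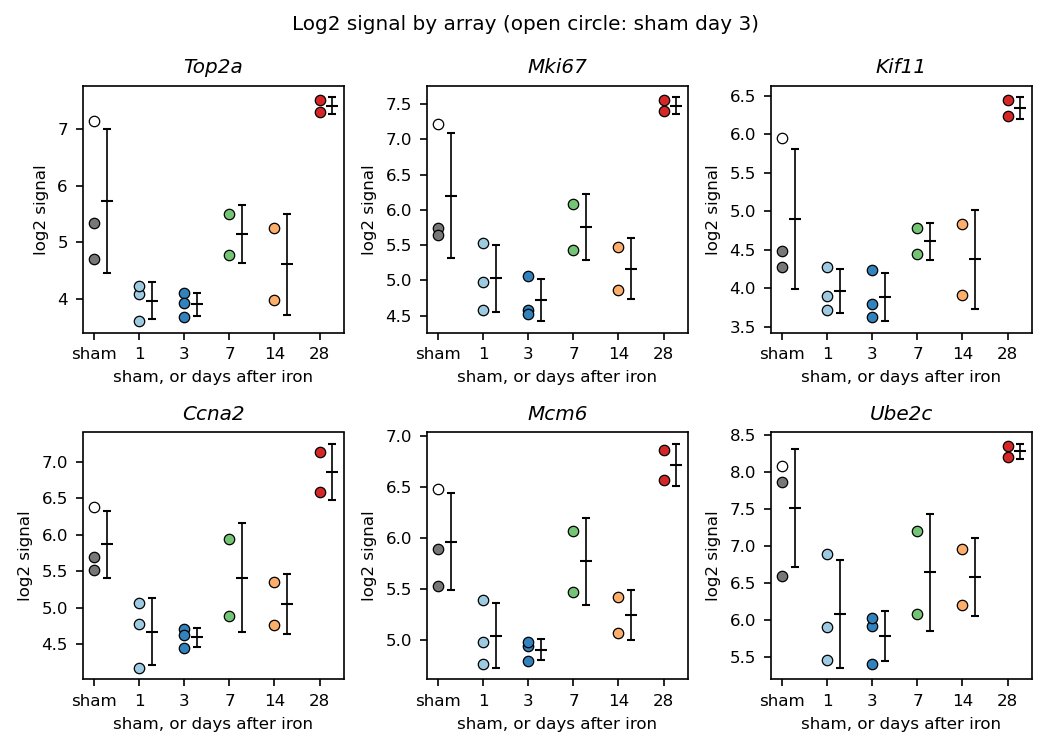
Log2 levels per array by group for genes of S phase and mitosis, with points for arrays, an open circle for the sham day 3 array, and bars for the mean and SD. Day 28 is the highest iron group in each panel, and the sham day 3 array lies closer to day 28 than the sham day 1 arrays do for Top2a, Mki67 and Kif11.

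The 6 calls on day 3 (Top2a, Ube2c, Mki67, Ccna2, Mcm6 and Cdk4) depended on single arrays. Against the sham day 1 arrays alone 0 of the 40 genes fell, where 1.15% of all genes did, and 11 of the 40 had an unadjusted p under 0.05, against 3676 of all genes. The differences there were -0.80 (SE 0.208, adjusted p = 0.0699) for Mcm6, -0.97 (SE 0.272, adjusted p = 0.0895) for Mki67, -1.13 (SE 0.33, adjusted p = 0.102) for Top2a and -1.45 (SE 0.442, adjusted p = 0.113) for Ube2c. The count was 1 without iron day 3 replicate 1 (0.868% of all genes fell), 0 without replicate 2 (0.497%) and 2 without replicate 3 (1.56%). It was 1 without sham replicate 1 (0.813%) and 8 without sham replicate 2 (3.13%). Markers of other cells were lower on day 3 as well: 15 of 19 macrophage markers fell (median -1.26), as did 12 of 15 fibroblast markers (median -1.06) and 9 of 14 endothelial markers (median -1.12). Of the 14 T cell and thymocyte markers 0 fell (median -0.52). The macrophage score was -0.77, -0.81 and -0.61 on day 3 and 0.49 and 0.21 in the sham day 1 arrays with 0.45 in the sham day 3 array. What part these cells had in the day 3 differences of the cell cycle genes was not tested.

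On day 28 the result depended on which sham arrays served as control. Against all 3 sham arrays 2 genes rose, Bub1b and Ccnb2. Against the sham day 1 arrays alone 12 of the 40 rose, where 2.34% of all genes did: Top2a, Kif11, Mki67, Rrm2, Cdk1, Mcm6, Bub1b, Aurkb, Ccne2, Ccnb2, Rrm1 and Mcm2. There Top2a rose by 2.40 (SE 0.362, adjusted p = 0.00203), Kif11 by 1.96 (SE 0.279, adjusted p = 0.00129), Mki67 by 1.78 (SE 0.298, adjusted p = 0.00412) and Bub1b by 0.97 (SE 0.107, adjusted p = 0.000154). Set against the sham arrays by day, the median difference of the 40 genes was 0.52 from the sham day 1 arrays and 0.24 from the sham day 3 array, while the medians over all genes were 0.04 and 0.10. Of the 40 genes, 34 and 32 were above 0, or 85.0% and 80.0%, against 57.3% and 66.0% of all genes. With all other arrays kept, 0 of the 40 passed without iron day 28 replicate 1 (0.176% of all genes rose), without replicate 2 (0.206%), without sham replicate 1 (0.366%) and without sham replicate 2 (0.466%). The count was 1 without iron day 1 replicate 3 (0.883%), iron day 3 replicate 1 (0.853%) or iron day 3 replicate 2 (0.782%). Beside them, 10 of 14 T cell and thymocyte markers rose on day 28 over all 3 sham arrays (median 2.83), and their part in the result was not tested.

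**Figure D5:**
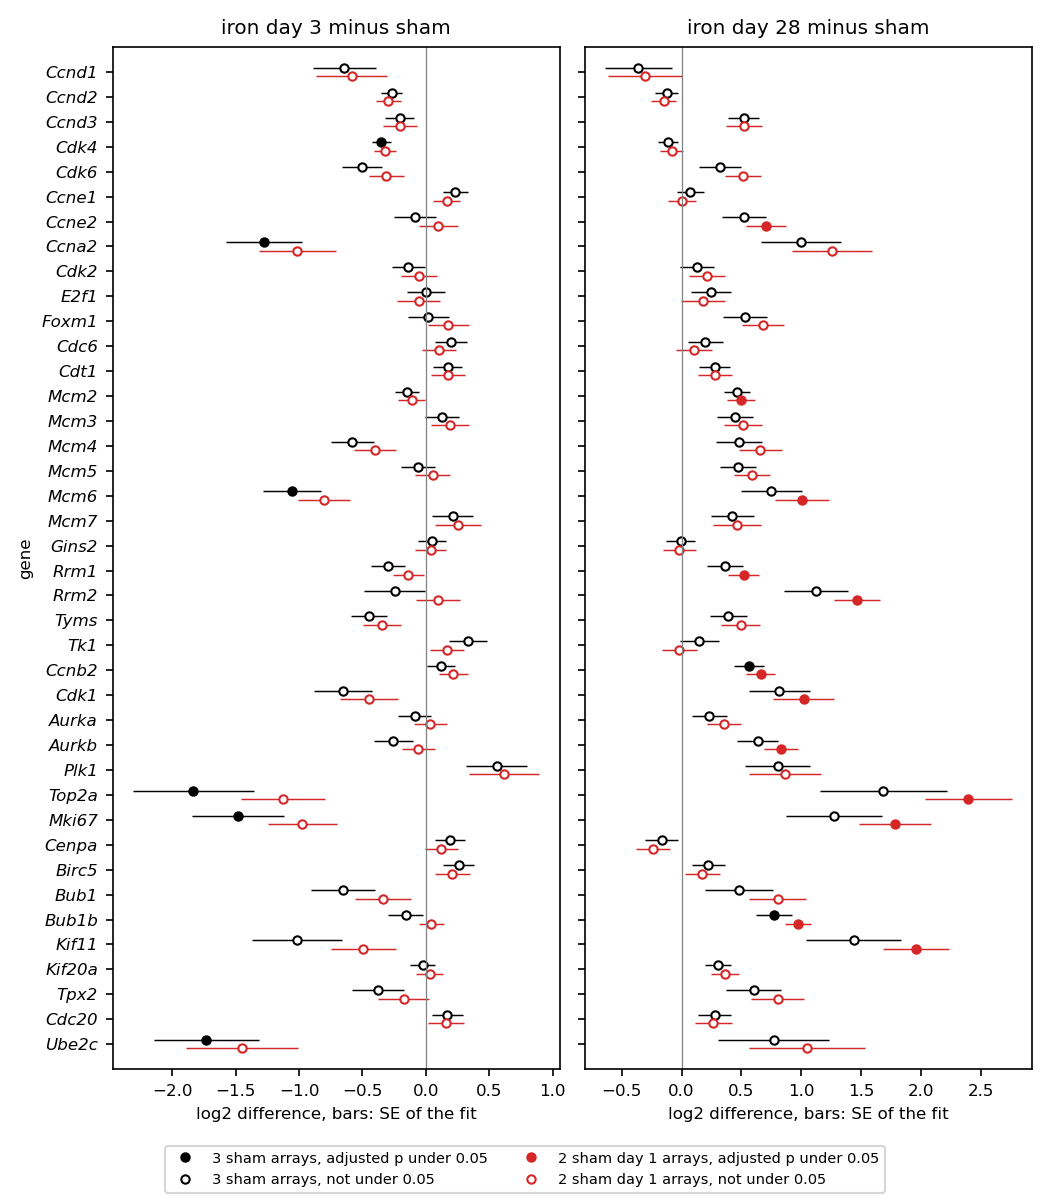
Log2 difference from sham on iron day 3 (left) and day 28 (right) for each of the 40 genes in rows by role, against all 3 sham arrays (black) or the 2 sham day 1 arrays (red), with the SE of the fit as bars and filled points for an adjusted p under 0.05. On day 3 the 6 filled points are all black, and on day 28 there are 2 black and 12 red ones.

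From early to late iron, 16 of the 40 genes rose with day 28 in the late group and 1 did without it and the sham day 3 array. The late minus early differences of the 16 genes ran from 0.31 for Ccnb2 to 1.79 for Top2a, and leaving out any single array gave 11 to 18 higher genes. The 1 gene was Top2a, which then rose by 0.94 (SE 0.243, adjusted p = 0.0373). The other 15 did not pass there. Of the licensing and helicase genes, Mcm6 was at 0.53 (SE 0.149, adjusted p = 0.0516), Mcm2 at 0.28 (SE 0.0798, adjusted p = 0.0516) and Mcm4 at 0.29 (SE 0.119, adjusted p = 0.175). The chromosome and spindle genes Mki67, Kif11, Bub1b and Tpx2 were at 0.59 (SE 0.2, adjusted p = 0.1), 0.57 (SE 0.188, adjusted p = 0.0916), 0.19 (SE 0.0719, adjusted p = 0.142) and 0.19 (SE 0.142, adjusted p = 0.462). Of the cyclins and kinases, Ccna2 was at 0.60 (SE 0.214, adjusted p = 0.115), Ccnb2 at 0.20 (SE 0.0774, adjusted p = 0.153), Cdk1 at 0.31 (SE 0.171, adjusted p = 0.303), Aurkb at 0.13 (SE 0.0973, adjusted p = 0.456), Ccnd3 at 0.25 (SE 0.0975, adjusted p = 0.157) and Cdk6 at 0.20 (SE 0.104, adjusted p = 0.289). Ube2c was at 0.68 (SE 0.326, adjusted p = 0.24) and Tyms at 0.15 (SE 0.109, adjusted p = 0.473). All 15 differences stayed above 0, and each was smaller than with day 28. The 15 were picked by the comparison with day 28, on arrays that this fit shares, so neither observation is a separate result. In that fit, day 7 lay above day 3 for Mcm6 by 0.86 (SE 0.211, adjusted p = 0.0279), for Mki67 by 1.03 (SE 0.283, adjusted p = 0.0465) and for Top2a by 1.24 (SE 0.344, adjusted p = 0.049), where 4.22% of all genes rose. With all arrays, these 3 did not pass, and Mcm6 had 0.86 (SE 0.253, adjusted p = 0.0515). Of the markers, 12 of 14 T cell and thymocyte genes rose from early to late iron (median 1.70), as did 15 of 19 macrophage genes (median 0.92), 9 of 15 fibroblast genes, 3 of 14 endothelial genes and 3 of 6 B cell genes. On day 7 the macrophage score was 1.28 and 0.73, the highest of any day.

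Of the other genes of the pathway, 106 were listed and 103 measured. On day 3, 7 of 103 fell (3.11% of all genes did), 6 of 47 other mitosis genes and 1 of 33 other replication genes. They included Anln, a scaffold of the contractile ring, at -0.81 (SE 0.158, adjusted p = 0.0147), Nusap1, a spindle protein, at -1.44 (SE 0.331, adjusted p = 0.0273), and Orc6, an origin recognition subunit, at -0.44 (SE 0.12, adjusted p = 0.0497). Against the sham day 1 arrays alone 0 of 103 fell, where 1.15% of all genes did. From early to late iron, 17 of 103 rose and 3 fell, against 6.56% and 5.13% of all genes. Smc4, a condensin subunit, rose by 0.76 (SE 0.128, adjusted p = 0.00221), Ect2, which directs cytokinesis, by 0.83 (SE 0.153, adjusted p = 0.00374), and Pcna, the sliding clamp of DNA polymerase, by 0.32 (SE 0.082, adjusted p = 0.0231). Smc4 averaged 6.25 in early iron and 6.71, 6.55 and 7.78 on days 7, 14 and 28. In the same order, Ect2 averaged 4.01, 4.51, 4.25 and 5.77, and Pcna 8.78, 9.06, 8.80 and 9.42. Their differences without day 28 are not given here. Without the day 28 and sham day 3 arrays 4 of 103 rose and 2 fell, where 3.74% and 3.25% of all genes did, so these counts were near or under the share of all genes. On day 28 none of the 103 passed against sham, where 1.05% of all genes rose and 36 of the 103 had an unadjusted p under 0.05 (3052 of all genes). With the sham day 1 arrays as sole control 18 of 103 rose, where 2.34% of all genes did.

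Wee1, the kinase that holds Cdk1 inactive, was among the 3 that fell. It read 7.05 and 7.26 in the sham day 1 arrays and 6.93 in the sham day 3 array, and 7.04, 7.47 and 7.59 on iron day 1, 6.93, 7.55 and 7.25 on day 3, 5.99 and 6.33 on day 7, 6.61 and 6.18 on day 14 and 6.57 and 6.55 on day 28. The late iron arrays all lay below the early iron and the sham arrays. Wee1 fell by 0.93 (SE 0.126, adjusted p = 0.000595) from early to late iron and on day 7 against sham by 0.92 (SE 0.2, adjusted p = 0.0333). The other 2 of the 103 that passed on day 7 were Cdca5, sororin, which protects sister chromatid cohesion, and Ncapd2, a condensin subunit. Cdca5 rose by 0.62 (SE 0.129, adjusted p = 0.0278), and Ncapd2 fell by 0.54 (SE 0.095, adjusted p = 0.0158). Wee1 and Ncapd2 were the 2 of 103 that fell on day 7, where 0.878% of all genes fell. Gmnn, geminin, which keeps origins from being licensed again, fell by 0.36 (SE 0.105, adjusted p = 0.0413) from early to late iron, and Orc3 fell by 0.21 (SE 0.0575, adjusted p = 0.0295).

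Of 7 inhibitors of cyclin-dependent kinases, 6 were measured, since Cdkn1a shares its probe set with another symbol. None passed against sham on any of the 5 days. Cdkn1b, the inhibitor p27, read 8.23 and 8.34 in the sham day 1 arrays and 8.62 in the sham day 3 array, and 8.20, 8.19 and 8.20 on iron day 1, 8.32, 8.40 and 8.21 on day 3, 8.59 and 8.38 on day 7, 8.21 and 8.50 on day 14 and 8.82 and 8.90 on day 28. Day 28 was highest, and the sham day 3 array was above the other sham arrays. Cdkn1b rose from early to late iron by 0.31 (SE 0.0756, adjusted p = 0.0164). Among 17 genes of the retinoblastoma family and E2F factors, none passed in a comparison of any day with sham or of late with early iron. The F test called 2 of the 17, where 9.98% of all genes passed it.

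Of the 40 genes, 20 passed in none of the comparisons with all 15 arrays: Ccnd1, Ccnd2, Ccne1, Ccne2, Cdk2, E2f1, Foxm1, Cdc6, Cdt1, Mcm3, Mcm7, Gins2, Rrm1, Tk1, Aurka, Plk1, Birc5, Bub1, Kif20a and Cdc20. Ccne2 and Rrm1 passed on day 28 against the sham day 1 arrays alone. Of the 20, 7 had both day 28 arrays above all other iron arrays: Ccne2, Mcm3, Mcm7, Rrm1, Aurka, Bub1 and Kif20a. From early to late iron, the differences of the 23 genes that did not pass ran from -0.14 for Plk1 to 0.54. Gins2, a subunit of the replicative helicase complex, had its smallest p on day 14, at -0.31 (SE 0.122, adjusted p = 0.249). A p that misses the threshold does not show that these genes kept their level.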

How the data were processed

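The deposited values were log2 signals of 34760 probe sets on 15 arrays, from 0.234 to 13.0 with 0 missing. MAS5 appears in the submitters' processing notes. Its version, what it was used for and the array's genome build: not given in the sources used here. Of the probe sets, 21640 had 1 symbol, 1321 several and 11799 none. Each of 19937 named genes kept its single-symbol probe set with the highest mean, with no filter on level. limma 3.58.1 in R 4.3.3 fitted 6 group means (lmFit, eBayes with an intensity trend, 9 residual degrees of freedom), Benjamini-Hochberg adjustment ran over every named gene (threshold 0.05), and the fit was tested on simulated data. Scores are means of log2 values centred per gene. Promoters came from RefSeq (GRCm38.p6).

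The genes and lists were chosen with earlier results of these data known. In each comparison the genes given in full are those past the threshold, up to 8 in each direction by size, or, if fewer than 4 passed, the first 4 by p, with up to 3 genes by smallest p from each other list. Alternatives were median centring, quantile normalization, testing only genes above the 50th percentile of mean level, no intensity trend, the mean of a gene's probe sets, a replicate block, the sham day 1 arrays as sole control, leaving out each array and, chosen after seeing the data, leaving out the iron day 28 and sham day 3 arrays. Proton-exposed samples were not analysed here.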

Additional observations from a re-analysis of the deposited data

Results flagged for a closer look

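Of the 40 genes, 19 differed among the 5 iron days by the F test of limma, with p-values adjusted over all named genes. Among licensing and helicase genes the adjusted p was 0.00418 for Mcm6, 0.00730 for Mcm2, 0.0187 for Mcm4 and 0.0359 for Mcm5. Among chromosome, spindle and checkpoint genes it was 0.00602 for Mki67, 0.00604 for Top2a, 0.00893 for Bub1b, 0.00960 for Kif11, 0.0343 for Cenpa and 0.0347 for Tpx2. Mitotic cyclins and kinases had an adjusted p of 0.0114 for Cdk1, 0.0162 for Aurkb and 0.0316 for Ccnb2. In the genes of nucleotide supply it was 0.0103 for Rrm2 and 0.0201 for Tyms, and in the D-type cyclin group 0.0227 for Ccnd3 and 0.0337 for Cdk6. The adjusted p was 0.00550 for Ccna2 and 0.0233 for Ube2c. In 18 of the 19, Cenpa being the exception, the mean over day 28 was the highest of the 5 iron days. The 19 were picked by a test that uses the day 28 arrays, so this order is not a separate result. Without the iron day 28 and sham day 3 arrays none of the 40 genes passed this test in limma, where 4.59% of all genes did. At an unadjusted p under 0.05 there were 8 of the 40, a slightly smaller share than of all genes.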

How the results depend on the processing

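With few arrays per group, both the counts of calls and the medians moved with the arrays and settings. Over the alternatives the median difference of the 40 genes stayed negative on day 1 (-0.19 to -0.05), day 3 (-0.23 to -0.03, the upper end under the replicate block) and day 14, and positive on day 28 (0.32 to 0.52, with 0.35 under median centring) and from early to late iron (0.09 to 0.27). It changed sign on day 7 (0.0597 under the replicate block and with the sham day 1 arrays as control) and over all iron days (0.052 and 0.0476 under these settings). Median centring took out an all-gene shift of up to 0.10.

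On day 3, where 6 genes fell, the replicate block gave 2, and the sham day 1 arrays as control or leaving out the iron day 28 and sham day 3 arrays gave 0. The 1 fall on day 7 became 2 under median centring and 0 under quantile normalization, no intensity trend, the replicate block, the sham day 1 control and without those 3 arrays. On day 28, where 2 rose, median centring gave 0, and quantile normalization and no intensity trend gave 1 each. The replicate block and the sham day 1 control gave 12 each, and under the latter 2.34% of all genes rose. Over all iron days median centring gave 1 lower gene. From early to late iron, where 16 rose, testing only genes above the median level gave 7 of the 18 genes then tested and leaving out the 3 arrays gave 1, and under the replicate block the 1 fall was lost. From day 3 to day 7, where 0 rose, the filter on level gave 1, and the replicate block, the sham day 1 control and leaving out the 3 arrays gave 3 each. For the F test, with 19 calls, the filter gave 9 and leaving out the 3 arrays gave 0. Under the replicate block the sham day 3 array no longer enters the sham mean. Apart from this and from fewer genes or arrays entering the fit, the cause was not tested. Shares of all genes were given above only for some counts with the sham day 1 control or without the 3 arrays. For the other settings the counts alone do not show a change particular to the cell cycle genes.

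Leaving out 1 array at a time gave 0 to 3 lower genes on day 1 (3 without iron day 1 replicate 1), 0 to 8 on day 3 and 0 to 1 on day 7, 0 to 12 higher on day 28, and 0 to 1 lower over all iron days. From early to late iron it gave 11 to 18 higher and 1 lower gene each time, from day 3 to day 7 it gave 0 to 3 higher and 0 to 1 lower, and the F test made 1 to 22 calls. Shares of all genes were given above for only some of these fits. The counts alone therefore do not show a change particular to the cell cycle genes. Over all alternatives the values of single genes kept direction and side of the threshold 1095 times, lost the call 181 times, gained it 28 times and turned 0 times. Of the results followed, 38 were called in the main fit and 20 were not. Only the 38 could lose a call, and the 1095 include results that were never called.

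Same-numbered arrays of different groups did not deviate together (median correlation of deviations 0.04 over 31 pairs, 6 above 0.1, against -0.02 over 50 other pairs), so the replicate numbers are not taken to pair the arrays. The block gives the sham day 3 array, which has no number, a level of its own. In this respect the block repeats the sham day 1 control and is not a separate check.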

Other observations

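The arrays of day 14 differed from each other in several of the genes, which widens the spread of the fit. Top2a read 5.25 in replicate 1 and 3.98 in replicate 2, Cdk1 5.06 and 4.201, and Kif11 4.83 and 3.92, while the T cell and thymocyte score was 0.75 and -0.42 in the same arrays. Plk1 and Ube2c ran the other way, at 4.62 and 5.50 for Plk1 and 6.21 and 6.96 for Ube2c. On day 7, Ccna2 read 5.94 in replicate 1 and 4.88 in replicate 2, and Ube2c 7.21 and 6.09, with a B cell score of 1.76 and 0.33 and a macrophage score of 1.28 and 0.73. The sham day 3 array also had the highest score of lung and airway markers, 1.73 against -0.26 and -0.68 in the sham day 1 arrays. No explanation was tested for these values.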
